A study of Mus musculus with 26 samples.

Results

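All cocaine libraries were set against all saline libraries of polysome RNA from the accumbens nucleus of Drd2-TRAP mice. The comparison took the 24 immunopurified libraries of the 26 in the series, by their titles, 15 from cocaine and 9 from saline, and left out the 2 input libraries. Withdrawal and library set were terms of the fit. Library set is a split by library number, with numbers from 1806 to 1823 in set 1 and from 1836 to 1843 in set 2. The mice were adults of line CP101, which carries EGFP fused to ribosomal protein L10a under control of Drd2, on a background given as FVB/N-Swiss Webster crossed for at least 9 generations to C57BL/6. All animals, saline included, underwent intravenous self-administration with long access. In the titles saline forms groups without withdrawal (n = 3, set 1) and with withdrawal (n = 3 in set 1 and n = 3 in set 2). Cocaine forms a nonescalating group (n = 5, set 1), an escalating group (n = 2, set 1) and nonescalating groups with withdrawal (n = 3 in set 1 and n = 5 in set 2). The description lines of the 5 nonescalating libraries without withdrawal in their titles do carry that word, so their state is uncertain. The labels state no age in weeks, sex or length of withdrawal, and no label ties a library to 1 animal, so p-values measure the spread between libraries, which may be technical. Titles and replicate numbers of the withdrawal libraries in set 1 recur in set 2, so the sets may share animals.

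Medium spiny neurons of the indirect pathway carry the dopamine D2 receptor, which lowers cyclic AMP, together with the adenosine receptor of type 2A and the peptide precursor proenkephalin. Cocaine blocks dopamine reuptake and raises dopamine in the accumbens. Translating ribosome affinity purification (TRAP) pulls down the tagged ribosomes, so the values follow the mRNA on ribosomes of cells with an active Drd2 promoter. In the accumbens those are mainly the D2 neurons, beside cholinergic interneurons. A pooled comparison asks whether a gene differs between cocaine and saline on average over withdrawal states and library sets.

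Counts in genes ran from 1.54 to 17.5 M per library (M for mega, median 3.27 M), so 3 counts, the least taken as detectable, stood for 0.197 to 2.34 CPM (counts per M, TMM scaled). Of 10 D2 neuron markers 9 had a count in every library, and Drd2 itself ran from 247 to 3057 CPM. Since 12 of 13 endothelial and 9 of 14 astrocyte markers also had a count in every library, such counts do not set the labelled cells apart. Nonescalating replicate 4 (library 1813) held the lowest Drd2 and the highest Malat1, a nuclear RNA, at 78052 CPM. Cholinergic markers summed to 11.4 to 98.2 CPM in cocaine and to 30.0 to 121 CPM in saline libraries. Total counts, genes detected, the shares of records in no gene or with several alignments and Malat1 were compared between cocaine and saline within strata by an exact permutation test. None of these 5 measures differed by that exact permutation test (two-sided, smallest raw p = 0.188, adjusted p from 0.483 to 0.701). Records in no gene made up 44.0% ± 9.57 (SD, n = 15) in cocaine and 39.9% ± 9.76 (SD, n = 9) in saline libraries.

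No gene passed the pooled test. Of 15854 genes, 0 had an adjusted p under 0.05 by edgeR's quasi-likelihood test (0% called), and the smallest adjusted p was 0.95. At an unadjusted p under 0.05 there were 720 genes (4.54%), of which 444 had higher levels in cocaine (2.8%) and 276 lower levels (1.74%). Without escalating replicate 2 there were 1097 such genes (6.38% of those tested), over 1.5 times as many. Without escalating replicate 1 there were 1025 of 17162, and without both escalating libraries 620 of 14747. The filter on low counts works over the labelled groups, of which escalating is the smallest. It let through more genes when 1 escalating library was left out. The part of the filter in these numbers was not tested. In each twentieth of the p range lay between 4.54% and 5.29% of the genes, and the lowest twentieth held the fewest. Limma voom with quality weights called 0 genes, with 1080 at an unadjusted p under 0.05. DESeq2's Wald test called 3, all higher in cocaine. The fold changes spread around 0, with 52.8% of the genes above it and a median log2 fold change of 0.03.

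**Figure D1:**
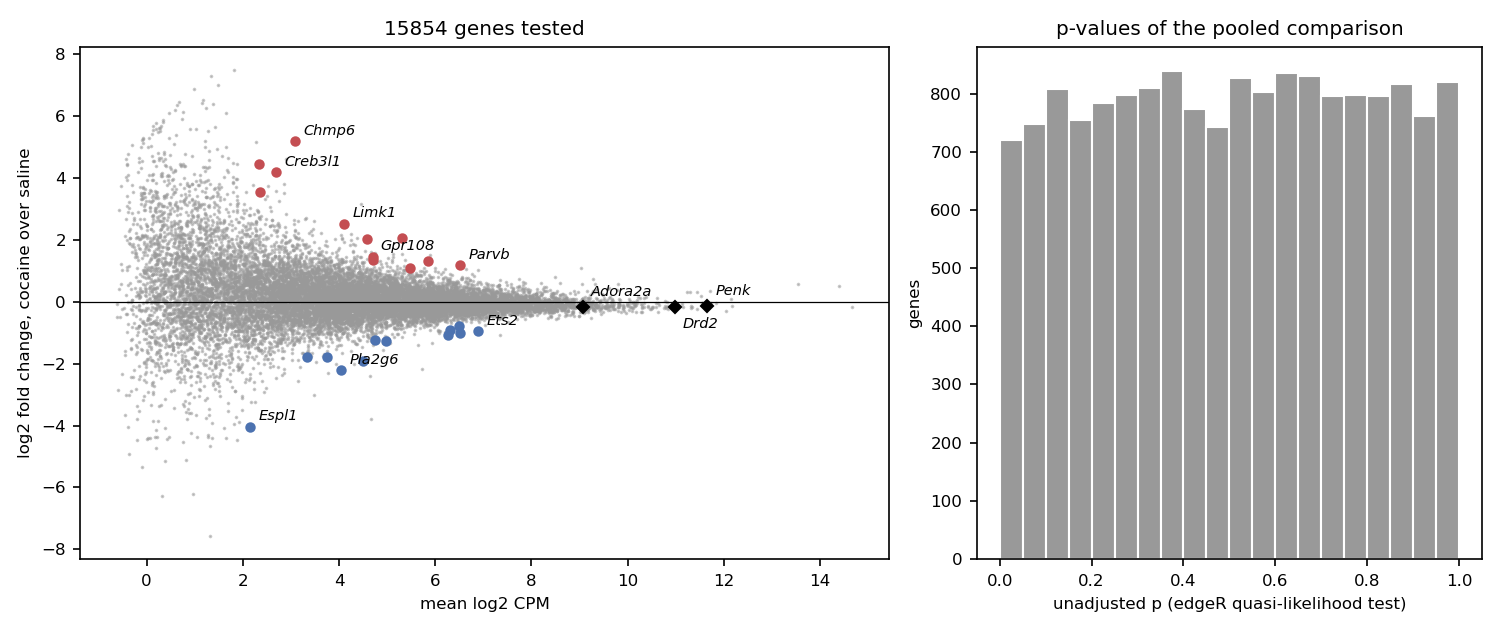
Left, log2 fold change of cocaine over saline against mean log2 CPM for the 15854 genes tested, each a gray point, with the 12 genes of smallest p among higher genes in red and among lower genes in blue, and Drd2, Adora2a and Penk as black diamonds. Right, number of genes in each twentieth of the unadjusted p range, from 720 in the lowest to at most 838.

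The precision of the pooled test depended on the level of a gene. The median standard error of the log2 fold change was 0.58 over all genes, 0.47 over the 12465 genes whose mean log2 CPM reached 2, and 0.26 over the 3318 genes that reached 6. Among the latter, the 95% interval lay within 2-fold either way for 2815 genes (84.8%). Among genes that reached 2 and have an interval it did so for 4312 of 12464 (34.6%). A 2-fold difference therefore lay outside the interval for most genes at high levels, and within it for most of the others.

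The genes named next come from the 12 with the smallest p in each direction, with a mean log2 CPM that reached 2 and without a predicted symbol. All 24 share an adjusted p of 0.95, so they are described as the leading values of the comparison, not as changed genes. Among the higher genes, Limk1 led. It encodes LIM kinase 1, which phosphorylates the actin-severing protein cofilin (GRCm38 chromosome 5, 134656039 to 134688598, minus strand). Limk1 ran from 0.907 to 101 CPM in cocaine libraries (median 16.1, n = 15) and from 1.05 to 11.01 CPM in saline libraries (median 3.33, n = 9). The groups overlapped: 8 of 15 cocaine libraries lay above the highest saline library and 1 below the lowest. The log2 fold change was 2.52 (SE 0.68, 95% interval 1.14 to 3.90, unadjusted p = 0.000748), and it was 2.82, 2.35 and 2.30 in the 3 strata.

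Parvb (chromosome 15, 84232043 to 84315688, plus strand) encodes beta-parvin, a focal adhesion protein that binds integrin-linked kinase. Its levels were 24.1 to 265 CPM in cocaine (median 120) and 9.72 to 130 CPM in saline (median 42.4), with a log2 fold change of 1.17 (SE 0.36). Among libraries without withdrawal all 7 cocaine libraries, at 120 to 231 CPM, lay above the 3 saline libraries, at 43.3, 30.9 and 66.4 CPM. The same held for 0.486% of all genes tested. In both withdrawal strata the groups of Parvb overlapped. Eef2k (chromosome 7, 120842831 to 120907450, plus strand) encodes the kinase that slows translation elongation by phosphorylating elongation factor 2. Eef2k ran from 3.99 to 82.9 CPM in cocaine (median 35.3) and from 5.89 to 27.2 CPM in saline (median 10.9), with 9 of 15 cocaine libraries above the highest saline library. Its log2 fold change was 1.35 (SE 0.45), and the groups did not overlap in withdrawal set 1 (28.7 to 54.3 against 7.59 to 10.98 CPM). In that stratum 4.76% of all genes tested were separated in this direction.

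Gpr108 (chromosome 17, 57234635 to 57248446, minus strand) encodes a membrane protein of the Golgi. Its levels were 10.9 to 115 CPM in cocaine (median 24.6) and 0.702 to 37.5 CPM in saline (median 7.99). All 15 cocaine libraries lay above the saline median, but 4 above the highest saline library, and the log2 fold change was 1.45 (SE 0.49). Pmp22, a membrane protein of myelin, had 0.738 to 94.6 CPM in cocaine (median 29.9) and 0.653 to 27.0 CPM in saline (median 4.82), with a log2 fold change of 2.01 (SE 0.67). Slc39a13, a zinc transporter (1.31, SE 0.42), and Thsd1, a thrombospondin-domain protein of endothelium (2.06, SE 0.69), followed. With the mean level of glial, microglial and vascular markers as a term, the values were 1.96 for Pmp22 and 2.18 for Thsd1.

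A further 4 higher genes had low medians and few counts in saline. Chmp6, a subunit of the membrane-remodelling complex ESCRT-III, had a count in 14 of 15 cocaine and 4 of 9 saline libraries. Its highest level, 118 CPM, came from nonescalating withdrawal set 2 replicate 5, the second highest was 43.0 CPM, and the median was 1.90 CPM. Creb3l1, a membrane-bound transcription factor of the endoplasmic reticulum, had a cocaine median of 2.90 CPM and a highest level of 100.5 CPM in the same library as Chmp6. Loxl3, a lysyl oxidase, and Tonsl, a protein of replication fork repair, had cocaine medians of 3.38 and 3.05 CPM and saline medians of 0. Of the 15 cocaine libraries 8 for Loxl3 and 9 for Tonsl lay above the highest saline library. The fitted log2 fold changes of the 4 genes ran from 3.52 to 5.19 and are no bounds.

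**Figure D2:**
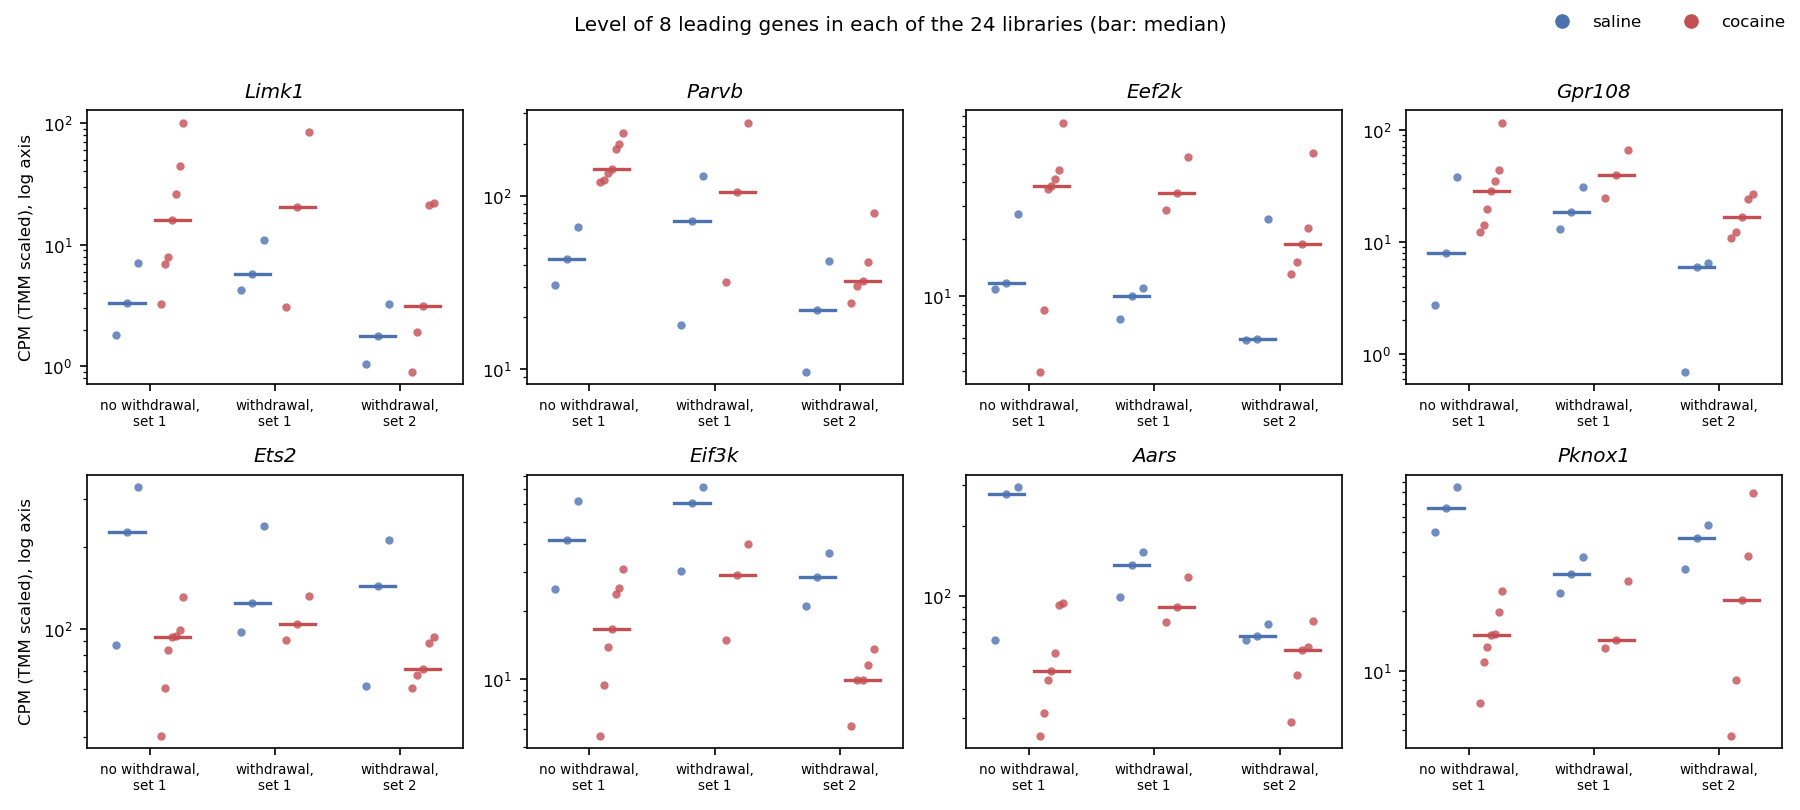
Level in CPM (log axis) of 8 leading genes in each of the 24 libraries, saline in blue and cocaine in red, by withdrawal and library set, with a bar at each median. Limk1, Parvb, Eef2k and Gpr108 (top) had larger and Ets2, Eif3k, Aars and Pknox1 (bottom) smaller medians in cocaine than in saline in all 3 strata, and the pooled groups overlapped for each gene.

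Among the lower genes, Ets2 had the smallest p. It encodes an ETS-family transcription factor that is a target of ERK signalling (chromosome 16, 95702075 to 95721051, plus strand). Ets2 ran from 40.4 to 132 CPM in cocaine libraries (median 91.2) and from 61.5 to 333 CPM in saline libraries (median 144). All 15 cocaine libraries lay at or below the saline median, and 3 below the lowest saline library. The log2 fold change was −0.95 (SE 0.25, 95% interval −1.45 to −0.45, unadjusted p = 0.000512), and −0.76 without saline replicate 1, the library with the highest level.

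Eif3k (chromosome 7, 28971372 to 28981864, minus strand) encodes a subunit of translation initiation factor 3. Its levels were 5.61 to 39.9 CPM in cocaine (median 13.9) and 21.05 to 71.2 CPM in saline (median 36.2). Of the 15 cocaine libraries 10 lay below the lowest saline library, and in withdrawal set 2 the groups did not overlap (6.23 to 13.6 against 21.05 to 36.2 CPM). In that stratum 1.75% of all genes tested were separated in this direction. The log2 fold change of Eif3k was −1.24 (SE 0.34), with −1.26, −0.95 and −1.47 in the 3 strata. Leaving out 1 library at a time moved the value of Eif3k no nearer to 0 than −1.13.

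Pknox1 (chromosome 17, 31564734 to 31607693, plus strand), a homeodomain transcription factor that pairs with PBX proteins, had 4.67 to 79.2 CPM in cocaine (median 15.2) and 24.6 to 84.8 CPM in saline (median 46.8). For Pknox1, 11 of 15 cocaine libraries lay below the lowest saline library, including all 7 without withdrawal, and 1 was well above the saline median (nonescalating withdrawal set 2 replicate 3, at 79.2 CPM). Without withdrawal, 0.416% of all genes tested had every cocaine library below the saline libraries. The log2 fold change of Pknox1 was −1.26 (SE 0.38). Aars (chromosome 8, 111033144 to 111057664, plus strand), alanyl-tRNA synthetase, had 25.2 to 120 CPM in cocaine (median 58.7) and 64.6 to 293 CPM in saline (median 99.6). The fold change of Aars was −1.03 (SE 0.29) pooled, −1.91 without withdrawal and −0.44 and −0.35 in the withdrawal strata. Its 2 highest values belonged to saline replicates 1 and 3.

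Ralgds (chromosome 2, 28513125 to 28553081, plus strand), an exchange factor that links Ras to Ral GTPases, had 25.6 to 106 CPM in cocaine and 55.3 to 286 CPM in saline, with a log2 fold change of −0.91 (SE 0.28). Without saline replicate 3, which held the 286 CPM, it was −0.57. The groups of Ralgds did not overlap without withdrawal (30.8 to 62.4 against 110 to 286 CPM) or in withdrawal set 2 (39.3 to 87.4 against 91.6 to 102 CPM), and they overlapped in withdrawal set 1. Over all genes tested, groups without overlap were 0.416% lower in the first, 2.9% in withdrawal set 1 and 1.75% in withdrawal set 2.

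For a further 4 of the lower genes, saline replicate 1 (library 1806) held the highest saline value and its removal moved the log2 fold change by more than 1.5 times. Espl1, the protease separase, had 75.2 CPM there and at most 4.63 CPM in every other library, and its value went from −4.04 to −1.79. Cdc34, a ubiquitin-conjugating enzyme, went from −1.92 to −1.18. Spata2, an adaptor of the deubiquitinase CYLD, went from −1.09 to −0.68, and Ehbp1, a protein of endocytic traffic, from −0.80 to −0.39. Pla2g6, a calcium-independent phospholipase A2 (−2.21, SE 0.70), also had its highest level, 159 CPM, in saline replicate 1. Thap11, a zinc-finger transcription factor (−1.78, SE 0.55), had 122 CPM in saline withdrawal set 1 replicate 1, without which the value was −1.05. Rpf2, a ribosome assembly factor (−1.80, SE 0.58), had 9 of 15 cocaine libraries below the lowest saline library.

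**Figure D3:**
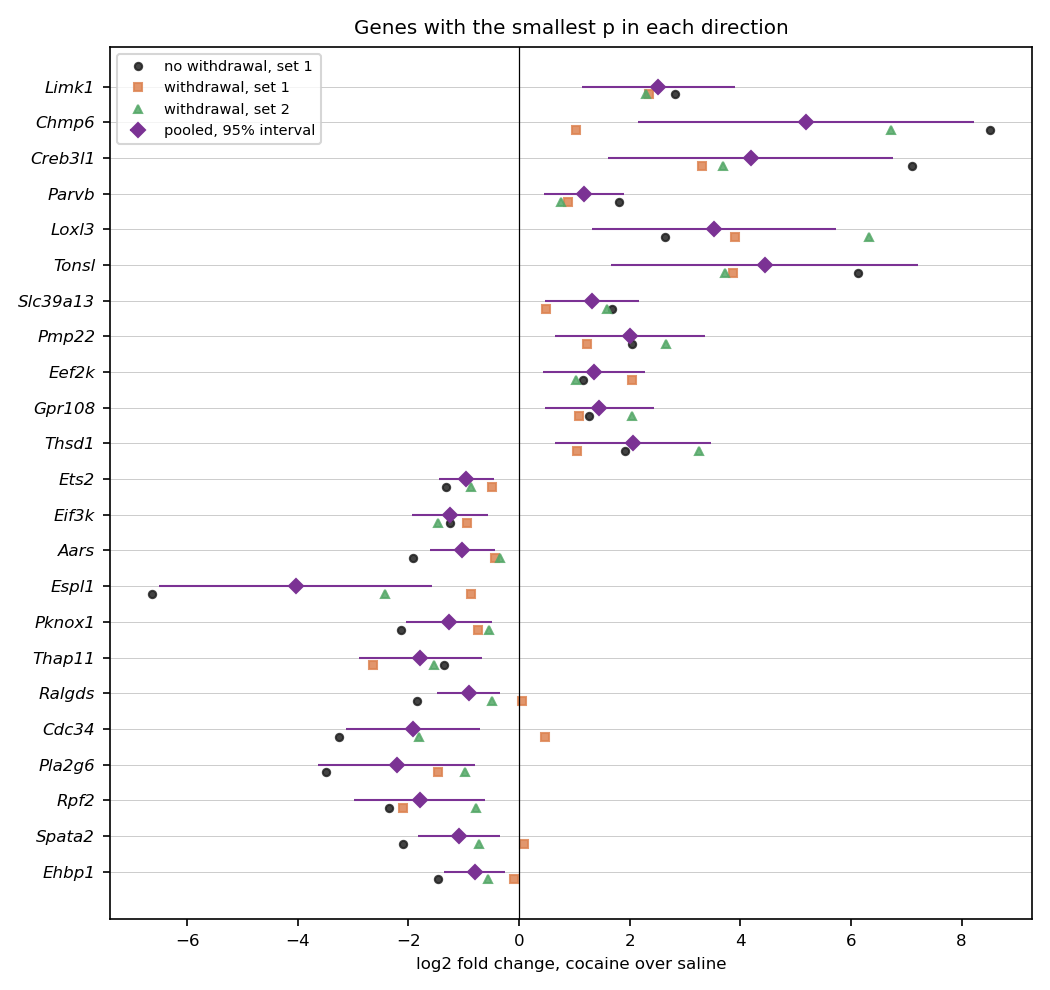
Log2 fold change of cocaine over saline for the leading genes that are reported, pooled (diamond, with its 95% interval) and in the 3 strata (circle, square and triangle). The stratum values lie above 0 for all higher genes shown, and below 0 for 9 of the 12 lower genes.

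Pooling averages over 3 strata that share no library: no withdrawal (7 cocaine against 3 saline), withdrawal set 1 (3 against 3) and withdrawal set 2 (5 against 3). The 12 higher genes were above 0 in all 3 strata and 9 of the 12 lower genes were below 0 in all 3, the exceptions being Ralgds, Cdc34 and Spata2 in withdrawal set 1. Since these genes were picked for their pooled value, this is a description only. Over the same 12465 genes as above, the fold changes of the strata were nearly unrelated. Pearson's r across genes was −0.016 between no withdrawal and withdrawal set 1, 0.051 between no withdrawal and withdrawal set 2, and 0.0065 between the withdrawal sets. Genes are not independent replicates, and these values describe how alike the strata were. Of these genes 1736 were above 0 and 1588 below 0 in all 3 strata, 26.7% together. Unrelated strata would also share a sign for part of the genes.

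Within single strata edgeR also called 0 genes, with 1005, 313 and 809 at an unadjusted p under 0.05. Cocaine libraries all lay above the saline libraries for 77 genes without withdrawal (0.486%), for 755 in withdrawal set 1 (4.76%) and for 270 in withdrawal set 2 (1.7%). They all lay below for 66 (0.416%), 460 (2.9%) and 278 genes (1.75%). How often groups separate without any effect depends on their sizes, which were 7 against 3, 3 against 3 and 5 against 3. These counts therefore do not rank the strata by the size of a cocaine effect. No gene was separated in all 3 strata. DESeq2 on the libraries of each stratum called 13, 1 and 38 genes.

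The genes that mark the labelled neurons and their dopamine response had pooled values near 0 where they were well measured. None of the 18 receptor, peptide, activity and hormone-response genes looked at by name passed (smallest unadjusted p = 0.322, all adjusted p at or above 0.999), and for 8 of them the 95% interval lay within 2-fold either way. Drd2, the D2 receptor gene, had 247 to 2976 CPM in cocaine (median 2005) and 876 to 3057 CPM in saline (median 2290), with a log2 fold change of −0.19 (SE 0.26, interval −0.71 to 0.33). Adora2a, the adenosine receptor 2A gene, had medians of 499 and 557 CPM and a value of −0.16 (SE 0.29). Penk, the proenkephalin gene, had medians of 3469 and 3503 CPM and a value of −0.14 (SE 0.28). The cocaine and saline ranges of all 3 genes overlapped, and the lowest library of each was nonescalating replicate 4.

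Genes typical of the D1 neurons of the direct pathway were at low levels. Drd1, the D1 receptor gene, had medians of 36.4 CPM in cocaine and 37.4 CPM in saline (log2 fold change −0.09, SE 0.39). Tac1, the substance P precursor, and Pdyn, the dynorphin precursor, had values of 0.27 (SE 0.60) and 0.06 (SE 0.50), and Cartpt, the CART peptide gene, of −0.16 (SE 0.53). The intervals of Tac1, Pdyn and Cartpt were wider, reaching 1.49 for Tac1 and −1.24 for Cartpt.

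Activity-regulated genes, which neurons transcribe within minutes of stimulation, differed in how well they could be measured. Egr1, a zinc-finger transcription factor, had 82.6 to 759 CPM in cocaine and 206 to 571 CPM in saline (medians 384 and 381), with a log2 fold change of 0.04 (SE 0.27, interval −0.51 to 0.59). Homer1, a postsynaptic scaffold gene (0.18, SE 0.31), and Arc, an activity-regulated cytoskeletal gene (0.06, SE 0.42), also had intervals within 2-fold. Fosb, an AP-1 subunit that accumulates with repeated cocaine in its deltaFosB form, had a median of 12.8 CPM in cocaine and 2.10 CPM in saline. Its fitted value was −0.66 (SE 0.73). Saline replicate 1 held 132 CPM of Fosb, and without that library the value was 0.66. Reads per gene do not separate deltaFosB from full-length Fosb. Fos (at most 6.53 CPM), Junb and Npas4 were at or near 0 in part of the libraries, with standard errors of 0.93 to 1.57. Bdnf had counts in 3 of the 24 libraries, at most 6, and was not tested.

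Genes of the response to glucocorticoids did not pass either. Per1, also a clock gene, had a value of −0.06 (SE 0.24, interval −0.55 to 0.42), Fkbp5, which restrains the glucocorticoid receptor, −0.30 (SE 0.49) and Sgk1, a kinase, 0.34 (SE 0.36). Nr3c1, the glucocorticoid receptor gene itself, had 45.3 to 119 CPM in cocaine (median 79.2) and 51.7 to 225 CPM in saline (median 103), with a value of −0.54 (SE 0.23, unadjusted p = 0.0261). Only 1 of 15 cocaine libraries lay above the saline median of Nr3c1.

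**Figure D4:**
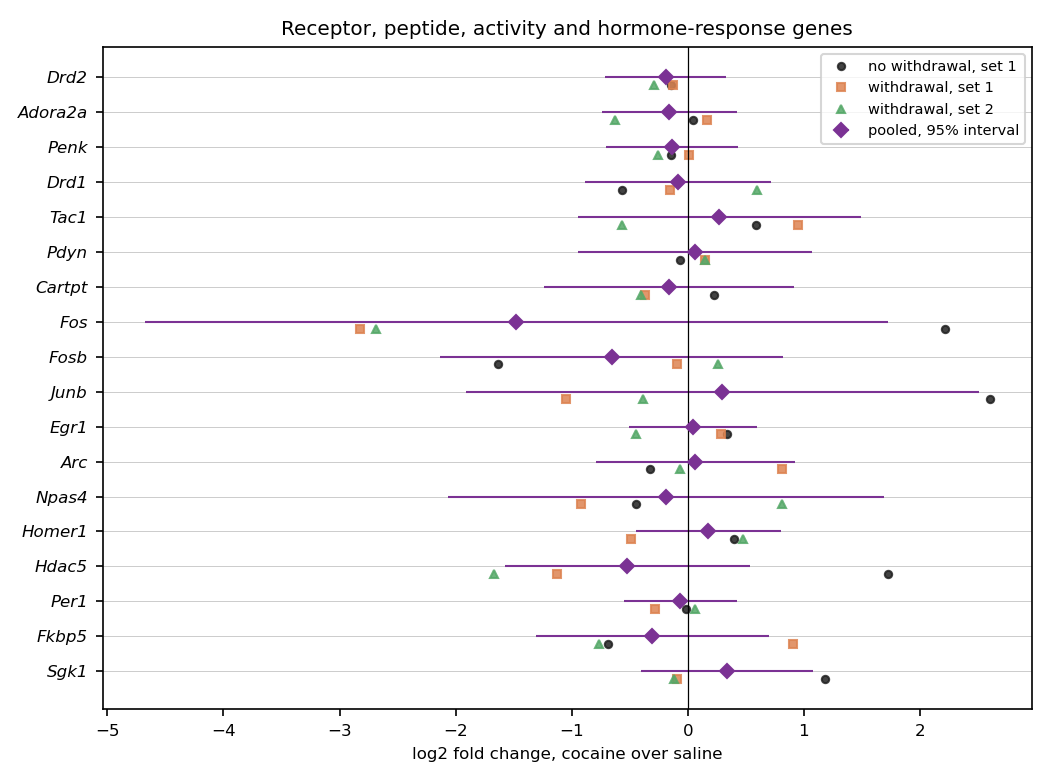
Log2 fold change of cocaine over saline for 18 receptor, peptide, activity and hormone-response genes, pooled (diamond, with its 95% interval) and in the 3 strata. All intervals include 0. For 17 of the 18 genes the strata lie on both sides of 0, the exception being Drd2.

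For Hdac5, as for 17 of these 18 genes in all, the pooled value averaged over strata of opposite sign. Hdac5 (chromosome 11, 102194432 to 102230166, minus strand) encodes a class IIa histone deacetylase that shuttles between nucleus and cytoplasm. The pooled log2 fold change was −0.52 (SE 0.51). Without withdrawal the 7 cocaine libraries had 198 to 919 CPM and the 3 saline libraries 119, 148 and 158 CPM, with no overlap (log2 fold change 1.72). In this stratum 0.486% of all genes tested were separated in that direction. In withdrawal set 1 cocaine had 170, 315 and 356 CPM and saline 1072, 584 and 180 CPM (−1.12). In withdrawal set 2 cocaine had 13.2 to 152 CPM and saline 168, 637 and 134 CPM (−1.67). The difference of the cocaine effect between withdrawal and no withdrawal was −3.15 (SE 0.76, unadjusted p = 0.000246), which did not pass over all genes (edgeR adjusted p = 0.749). By DESeq2 the difference of Hdac5 was −3.19 and passed (adjusted p = 0.0154). By limma voom with quality weights it was −2.13 and did not pass (unadjusted p = 0.00754, adjusted p = 0.9996). With the 5 uncertain nonescalating libraries coded as withdrawal it was −2.03 in edgeR (unadjusted p = 0.0284). Under that coding the only cocaine libraries without withdrawal are the 2 escalating ones, so withdrawal and escalation cannot be told apart.

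The edgeR test of that difference called 0 of 15854 genes (0% called), with 791 at an unadjusted p under 0.05 (4.99%). Limma voom with quality weights also called 0, with 430 at an unadjusted p under 0.05. DESeq2 called 14, of which 4 were higher. Hdac5, Mrps11 (DESeq2 adjusted p = 0.0182) and Lss (DESeq2 adjusted p = 0.0287) were among the 14. In edgeR the other leading genes were Mrps11, a mitochondrial ribosomal protein (6.34, SE 1.59), AK047830 (13.02) and Pctp, a phosphatidylcholine carrier (10.8), in the higher direction. Esm1, an endothelial proteoglycan (−12.7), and Lss, lanosterol synthase of cholesterol synthesis (−3.44, SE 0.93), were in the lower direction. AK047830, Pctp and Esm1 had a median at or below 2.22 CPM in both groups, and 1 library each held most of their summed level (53.9, 91.7 and 117 CPM). AK047830 had 5.85 without saline replicate 1 and 2.37 by limma voom. Esm1 had −7.28 without nonescalating replicate 3, and −5.17 with the uncertain libraries coded as withdrawal, under the same limit as for Hdac5. Mrps11 had 39.9 and 24.6 CPM in 2 of 3 saline libraries without withdrawal, and at most 1.99 CPM in the 7 cocaine libraries beside them.

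Gene lists were described by the number of members on each side of 0 and by their median, beside 52.8% above 0 and a median of 0.03 over all genes tested. None of the 38 lists had a member that passed (edgeR, all genes adjusted together). Members named from a list below are among its 3 with the smallest pooled p, so their values are a description only. Of the list medians 12 were above and 26 below 0, from −0.26 to 0.54. Without at least 1 library 20 of the 38 medians changed sign. Markers shared by medium spiny neurons had 1 of 18 members above 0 and a median of −0.14. For their leading member Rarb, the retinoic acid receptor beta gene, levels were 12.5 to 157 CPM in cocaine (median 91.8) and 58.7 to 461 CPM in saline (median 135). The log2 fold change of Rarb was −0.89 (SE 0.33, unadjusted p = 0.00967). Summed, the shared markers ran from 3370 to 17702 CPM in cocaine and from 7645 to 20316 CPM in saline. The median of the list was 0.03 with the share of records in no gene as a term and −0.37 in withdrawal set 2. In such samples fewer tagged cells and less RNA per cell cannot be told apart. D2 neuron markers had 3 of 10 members above 0 (median −0.17) and D1 neuron markers 6 of 10 (median 0.06).

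Genes of dopamine and cyclic nucleotide signalling had 4 of 27 members above 0 and a median of −0.16, which was −0.02 with the share of records in no gene as a term and 0.016 without saline replicate 3. Adcy9, a widely expressed adenylyl cyclase, stood on the other side. It had 92.6 to 288 CPM in cocaine (median 184) and 91.3 to 170 CPM in saline (median 121). For Adcy9, 9 of 15 cocaine libraries lay above the highest saline library, and the log2 fold change was 0.55 (SE 0.20, unadjusted p = 0.0113). Values of 0.72, 0.50 and 0.40 in the strata gave it 1 direction throughout. Gnb1, a G protein beta subunit, had 497 to 903 CPM in cocaine (median 660) and 425 to 1239 CPM in saline (median 840), with a value of −0.33 (SE 0.17).

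Ion channel and synapse lists lay slightly below 0. Potassium channels had 12 of 36 members above 0 (median −0.10), sodium and calcium channels 7 of 25 (−0.14), glutamate receptors and postsynaptic scaffolds 13 of 35 (−0.09), and synaptic vesicle genes 9 of 30 (−0.11). Without saline replicate 3 the median of the synaptic vesicle genes was 0.045. Kcnj3, an inward rectifier opened by G proteins, had medians of 29.1 and 11.2 CPM and a value of 1.29 (SE 0.54). Cacng8, an AMPA receptor auxiliary subunit, had 0 to 18.4 CPM in cocaine (median 3.98) and 6.31 to 47.5 CPM in saline (median 11.4), with 10 of 15 cocaine libraries below the lowest saline library. Its value was −1.63 (SE 0.57). Cacna1g, a T-type calcium channel (1.33, SE 0.58), and Cacna1b, the N-type channel (−0.51, SE 0.23), were on opposite sides of 0. Dlg4, the scaffold PSD-95, had a value of −0.42 (SE 0.21), and Gria1, an AMPA receptor subunit, of −0.36 (SE 0.21).

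Of the cytosolic ribosomal protein genes 19 of 80 tested were above 0 (median −0.15), with medians of −0.10, 0.10 and −0.38 in the strata. Rpl18 had 26.2 to 115 CPM in cocaine (median 44.6) and 39.1 to 142 CPM in saline (median 91.2), with a log2 fold change of −0.71 (SE 0.27). In withdrawal set 2 the 5 cocaine libraries of Rpl18, at 37.98 to 46.4 CPM, lay below the 3 saline libraries, at 80.0 to 99.3 CPM. There 1.75% of all genes tested were separated in this direction. Near-identical pseudogenes share reads with many ribosomal protein genes, so single members are uncertain. Nuclear-encoded genes of oxidative phosphorylation had 35 of 78 members above 0 (median −0.07), aminoacyl-tRNA synthetases 9 of 20 (−0.08), and heat shock and chaperone genes 6 of 27 (−0.17).

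Cholesterol and fatty acid synthesis genes had 13 of 29 members above 0 (median −0.03). Among the 3 members with the smallest p, all of the sterol branch, Cyp51 had 7.24 to 43.9 CPM in cocaine (median 19.4) and 12.4 to 83.5 CPM in saline (median 41.0), with a log2 fold change of −0.97 (SE 0.36). Fdft1, squalene synthase, had medians of 41.1 and 90.2 CPM (−0.64, SE 0.29), and Sc5d, a sterol desaturase, of 5.08 and 13.5 CPM (−1.40, SE 0.64). For Sc5d, 10 of 15 cocaine libraries lay below the lowest saline library. Clock genes had 10 of 19 above 0 (median 0.05). Ciart, a clock repressor, had medians of 11.6 and 30.1 CPM (−1.40, SE 0.52) and Per3 of 128 and 76.6 CPM (0.56, SE 0.26). Retinoic acid and nuclear receptor genes had 6 of 19 above 0 (median −0.18), a list that shares Rarb with the neuron markers. Histone deacetylase and chromatin genes had 10 of 30 above 0 (−0.10), and immediate early genes 10 of 24 (−0.16).

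Most marker lists of glial and vascular cells had medians above 0. Astrocyte markers had 13 of 14 members above 0 (median 0.47), oligodendrocyte markers 12 of 13 (0.22), endothelial markers 12 of 13 (0.32) and pericyte and smooth muscle markers 7 of 11 (0.26), while microglia markers had 4 of 11 (−0.26). Leaving out 1 library at a time gave medians from −0.74 (without nonescalating replicate 4) to 0.012 (without saline replicate 4) for microglia markers. The oligodendrocyte median ran from 0.078 (without saline replicate 1) to 0.63 (without saline replicate 4). The pericyte and smooth muscle median ran from 0.040 (without nonescalating withdrawal set 1 replicate 1) to 0.44 (without saline withdrawal set 1 replicate 1). Their summed levels overlapped widely. Astrocyte markers summed to 1090 to 5958 CPM in cocaine and to 888 to 4660 CPM in saline, oligodendrocyte markers to 233 to 3598 and 258 to 3092 CPM, and endothelial markers to 556 to 7297 and 452 to 7258 CPM. Mal, a myelin protein gene, had 27.5 to 142 CPM in cocaine (median 63.7) and 20.6 to 70.9 CPM in saline (median 29.8). For Mal, 7 of 15 cocaine libraries lay above the highest saline library, and the log2 fold change was 0.69 (SE 0.33). Csf1r, a microglial receptor gene, had a value of −1.55 (SE 0.69), with 414 CPM in saline replicate 1 and at most 47.2 CPM in any other library. Their part in the results for other genes was not tested beyond the fit with these markers as a term, which called 0 genes, with a smallest adjusted p of 0.0929 against 0.95 without that term.

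Nuclear and imprinted long noncoding RNAs had all 10 members above 0 and the highest list median, 0.54. The medians were 0.35, −0.21 and 1.44 in the strata. Malat1 had 8710 to 78052 CPM in cocaine (median 22377) and 7596 to 35993 CPM in saline (median 12471). Its log2 fold change was 0.50 (SE 0.34), with 0.27, 0.02 and 1.20 in the strata. Records in no gene moved with it: in withdrawal set 2 their share was 8.33 percentage points larger in cocaine than in saline, against 1.64 and 0.47 in the other strata. The part of this in the list's values was not tested beyond the fit with that share as a term, under which the median was 0.39.

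**Figure D5:**
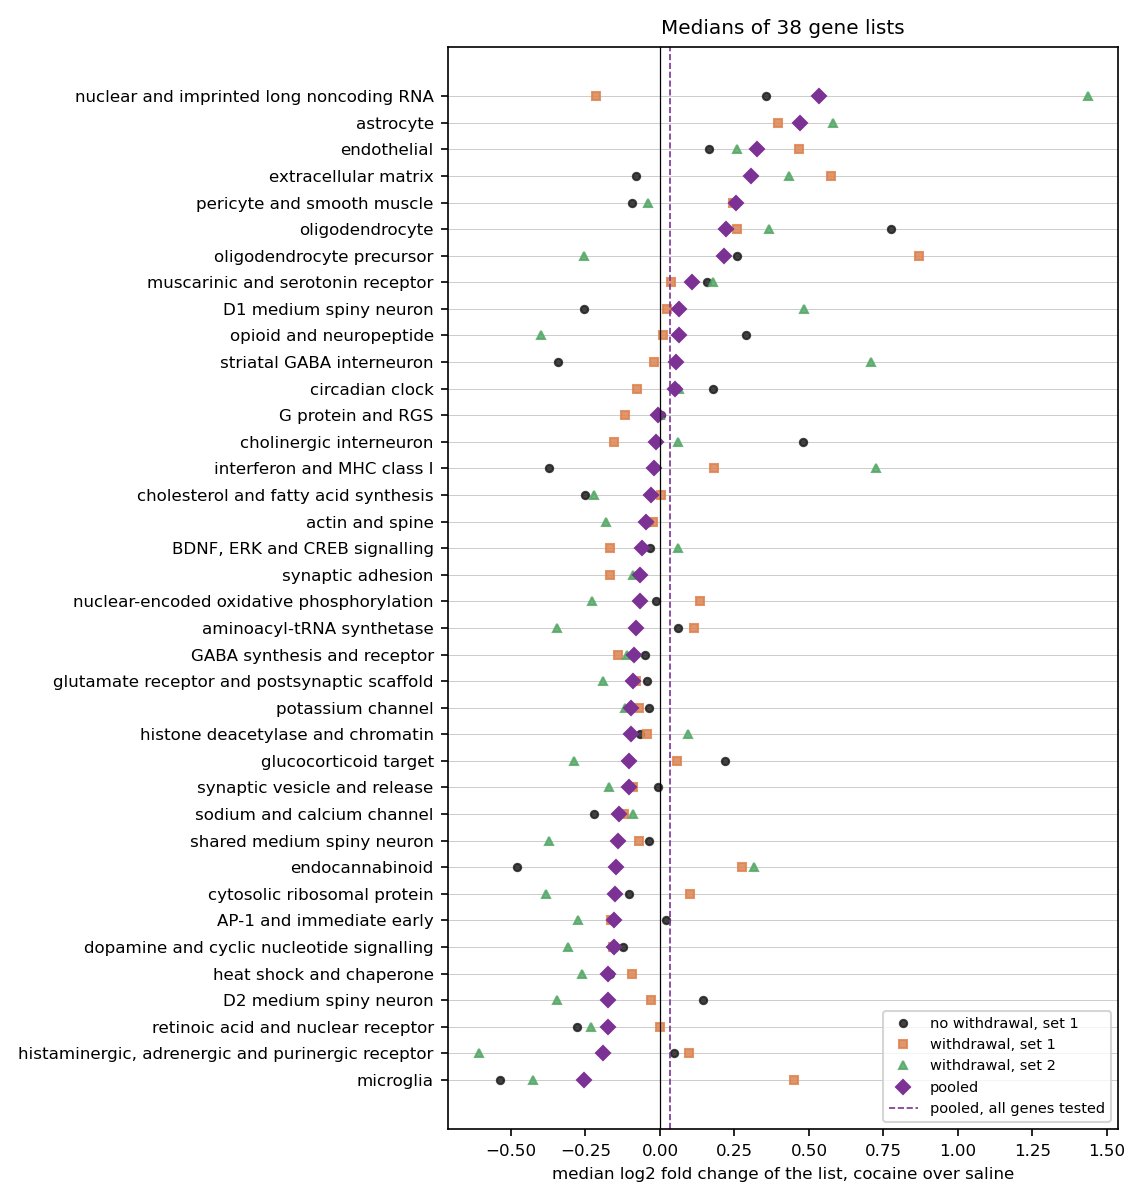
Median log2 fold change of cocaine over saline for the 38 gene lists, pooled (diamond) and in the 3 strata, ordered by the pooled median. Medians run from −0.26 for microglia markers to 0.54 for nuclear and imprinted long noncoding RNAs, and 15 lists have medians of 1 sign in all 3 strata.

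The 3 genes that DESeq2 called were Chmp6, Aspdh and AK080470 (0.0189% called), all with few counts in saline. Chmp6 had a DESeq2 adjusted p of 0.000524 and an edgeR adjusted p of 0.95. Aspdh, a gene for a dehydrogenase, had a count in 13 of 15 cocaine and 4 of 9 saline libraries, a highest level of 36.5 CPM, and adjusted p = 0.0116 (DESeq2) and 0.979 (edgeR). AK080470 had a count in 11 cocaine and 0 saline libraries, a highest level of 47.0 CPM, and adjusted p = 0.0455 (DESeq2) and 0.95 (edgeR). Aspdh and AK080470 were named after their values were seen, because DESeq2 called them.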

How the data were processed

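Each library has 1 deposited file of raw counts by gene symbol, all whole numbers and not normalized, which the authors made with HTSeq, STAR 2.0.0e and build mm10 of the mouse, per the submitters' processing notes. No source used here gives the HTSeq version, the annotation or the strand setting, so genes that overlap, lie antisense or are near copies cannot be told apart. Rows that name no gene (5 HTSeq summaries and 1 named unknown) stayed out of library sizes and tests. Records in no feature made up 29.7% to 62.5% of a library and records with several alignments 6.52% to 41.2%. Of 32657 genes in the files of set 1 and 32531 in set 2, the 31735 shared genes were used, which hold 99.0% to 99.3% of the gene counts. Over the 33 pairs of libraries within groups, chi-square per degree of freedom was never below 19.0, so each library counted as 1 replicate. These pairs lay within a library set. Libraries with the same title in set 1 and set 2 were not compared, and whether they share an animal was not tested.

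Genes were tested in R 4.3.3 by the quasi-likelihood test of edgeR 4.0.16, with limma 3.58.1 and DESeq2 1.42.0 as alternatives. The model had robust dispersions, TMM factors, filterByExpr over the labelled groups (minimum count 10), terms for cocaine, withdrawal and library set, and Benjamini-Hochberg adjustment over 15854 genes at a threshold of 0.05. It was tested on simulated data. The cocaine effect was also fitted within 3 strata, and its difference between withdrawal and none as an interaction. A standard error is the absolute log2 fold change over the root of F, and 95% intervals use a t quantile. Levels are CPM with TMM factors. Library measures were compared by an exact permutation test of cocaine labels within strata (134400 permutations, two-sided). The 95% intervals come from the quasi-likelihood fit and include the spread between libraries. The floor of 3 counts rests on library size alone and covers no such spread. Coordinates are from GENCODE M21 (GRCm38, the build mm10), in which 23128 of the 31735 symbols (72.9%) matched.

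Named genes are the 12 of smallest p in each direction whose mean log2 CPM reached 2 and whose symbol is no predicted one, 19 genes chosen by name, up to 3 members of each of 38 lists by smallest p, and the 3 interaction genes of smallest p in each direction. Not all of them are printed, and some are not reported here. The members and lists were chosen with earlier results of these data known. Alternatives were DESeq2, limma voom with quality weights, a filter left off or made stricter (CPM of at least 1 in 9 libraries), scaling by median of ratios, fewer terms, the replicate number as a block, added terms for non-neuronal markers or for the share of records in no feature, each set alone, other codings of the 5 uncertain libraries, and left-out libraries. A filter by the number of saline libraries was added after seeing the data.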

Additional observations from a re-analysis of the deposited data

Results flagged for a closer look

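For the leading, named and interaction genes, single libraries stood apart from the rest of their group by Dixon's criterion, on CPM, in 33 cases. Groups of 5 and 9 libraries were looked at. Chance marks about 1 in 20 groups only where the values of a group are normally distributed. Part of these genes had few counts and single high values. The 9 saline libraries also span withdrawal states and library sets. The chance rate for these groups is therefore not known, and the cases do not show which libraries deviate beyond chance. Leading genes were picked for their pooled values, which favours lower genes with a high saline library. The part of any 1 library in the results beyond the values given here was not tested.

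Saline replicate 1 (library 1806) stood apart from the 9 saline libraries for 8 genes, always as the highest. Its levels were 75.2 CPM for Espl1, 170 CPM for Cdc34, 159 CPM for Pla2g6, 443 CPM for Spata2 and 373 CPM for Ehbp1, all among the lower leading genes. They were 132 CPM for Fosb, 53.9 CPM for AK047830 and 91.7 CPM for Pctp. Saline replicate 3 was highest for Ralgds, at 286 CPM. Saline withdrawal set 1 replicate 1 was highest for Thsd1, at 68.3 CPM, and for Thap11, at 122 CPM. Its replicate 2 was highest for Fos, at 6.53 CPM, and for Esm1, at 20.7 CPM, and its replicate 3 for Chmp6, at 2.04 CPM. Saline withdrawal set 2 replicate 1 was highest for Creb3l1, at 5.01 CPM, and replicate 2 for Lss, at 103 CPM.

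In the 5 nonescalating withdrawal set 2 libraries, replicate 5 stood apart as the highest for 5 genes. Its levels were 118 CPM for Chmp6, 100.5 CPM for Creb3l1, 57.6 CPM for Eef2k, 124 CPM for Thsd1 and 37.4 CPM for Junb. Replicate 4 was highest for Tonsl, at 22.5 CPM, and for AK047830, at 1.14 CPM. Replicate 1 was highest for Pla2g6, at 18.5 CPM, replicate 2 for Pctp, at 22.4 CPM, and replicate 3 for Rpf2, at 25.6 CPM.

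In the 5 nonescalating libraries without withdrawal in their titles, replicate 1 was highest for Loxl3, at 44.1 CPM, and replicate 2 for Chmp6, at 43.0 CPM. Replicate 3 was lowest for Eef2k, at 8.49 CPM, and for Thap11, at 2.83 CPM, and highest for Esm1, at 117 CPM. Replicate 4 was highest for Pctp, at 3.81 CPM, and replicate 5 for Npas4, at 28.4 CPM.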

How the results depend on the processing

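EdgeR called 0 genes in the pooled comparison under every edgeR alternative and without each of the 24 libraries in turn. Limma voom also called 0, both pooled and for the difference by withdrawal. DESeq2 called 3 pooled, 14 for the difference by withdrawal, and 13, 1 and 38 in the strata of no withdrawal, withdrawal set 1 and withdrawal set 2. Genes at an unadjusted p under 0.05, 720 in the main fit, numbered 1627 with no filter on low counts, 450 with the stricter filter and 367 with a filter by the number of saline libraries. Those were 7.76%, 3.21% and 2.97% of the genes tested, against 4.54%, and the cause was not tested. Without 1 library they numbered 602 to 1097. The highest number came without escalating replicate 2, where 17196 genes were tested against 15854 in the main fit. Median-of-ratios scaling moved the median of all genes by 0.038. None of the 24 leading genes changed sign in any alternative that tested it or without any 1 library. They were picked for their pooled values in these libraries, so this is a description only. Chmp6, Loxl3 and Espl1 had values in 14 of 16 alternatives, and Limk1, Creb3l1 and Tonsl in 15. Same-numbered libraries gave r from −0.092 to 0.284 over 8 pairs, and other-numbered ones from −0.312 to 0.184 over 31. Of the same-numbered pairs 3 had r over 0.1. The main fit did not pair libraries by number, but these values do not settle whether the numbers mark pairs or blocks. With the replicate block 0 genes were called, with 523 at an unadjusted p under 0.05.

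Signs of genes with pooled values near 0 turned, and the cause was not tested. With library set 2 alone the log2 fold changes were −0.091 for Sgk1, 0.28 for Fosb, −0.52 for Tac1, −0.37 for Junb, 0.10 for Per1, 0.63 for Drd1, 0.84 for Npas4, −0.41 for Egr1 and −0.030 for Arc. With set 1 alone they were 0.50 for Hdac5, 0.13 for Adora2a and 0.027 for Cartpt. With the replicate block they were 0.035 for Fkbp5, 0.075 for Adora2a, 0.091 for Penk, −0.40 for Junb and 0.084 for Npas4. With non-neuronal markers as a term they were 0.043 for Fkbp5, 0.066 for Adora2a, 0.20 for Penk, 0.0071 for Cartpt and 0.020 for Per1. With the share of records in no gene as a term they were 0.12 for Penk, 0.013 for Per1 and 0.35 for Npas4. By limma voom they were 1.15 for Fosb, −0.016 for Tac1, −1.19 for Junb, 0.73 for Npas4, −0.18 for Egr1 and −0.11 for Pdyn. Without libraries 1806, 1813 and 1843 they were 0.83 for Fosb, 0.046 for Fkbp5, 0.13 for Cartpt and −1.21 for Junb. Without the escalating libraries they were −0.25 for Junb, −0.075 for Egr1 and −0.12 for Pdyn. Sgk1 had −0.032 with the nonescalating libraries coded as withdrawal, and Pdyn −0.046 with no library set term.

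Leaving out 1 library at a time gave ranges that crossed 0 for Arc (−0.11 to 0.29), Cartpt (−0.43 to 0.025), Drd1 (−0.29 to 0.057), Egr1 (−0.058 to 0.18), Fosb (−0.94 to 0.66), Hdac5 (−0.79 to 0.062), Homer1 (−0.011 to 0.50), Junb (−0.77 to 0.55), Npas4 (−0.72 to 0.52), Pdyn (−0.28 to 0.21), Penk (−0.23 to 0.13) and Per1 (−0.15 to 0.072). Of the 38 list medians, 20 changed sign without at least 1 library and 18 did not, and 9 changed sign without saline replicate 3.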
